A study of Mus musculus with 32 samples.

Results

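Cultured BAL17VII lymphoma cells were compared with cultured cells of BAL17, the line from which BAL17VII was derived. The comparison rests on all arrays of cultured cells, 6 of BAL17VII and 6 of BAL17, 12 of the 32 arrays in the series. Both are mouse B cell lymphoma lines and both carry the strain label BALB/c. No agent, genotype change or time is given for either line, and each line is 1 cell line, so every difference below is between these 2 lines. The other 20 arrays are of mouse brains that received PBS or cells of either line, and they enter only where levels in the brain are described (PBS at day 28, BAL17 cells at days 21 and 28, BAL17VII cells at day 21, 5 brains each). The extraction entry of the labels names frozen tissue and Trizol for every array, the cultured lines included. Nothing in the labels tells if a line's 6 arrays are 6 separate cultures, so the p-values measure only the spread between these arrays, which may be technical.

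B cells recognise antigen through a surface immunoglobulin receptor, take the antigen up, cut it in lysosomes and present its peptides on MHC class II molecules to helper T cells. In lymphocytes and many other cells, interferons switch on a shared set of antiviral genes and raise parts of the presentation machinery. Proliferating B cells depend on DNA replication, nucleotide supply and sterol synthesis, and they move and adhere through integrins, chemokine receptors and regulators of small GTPases.

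The B cell label was checked against marker genes. The B cell receptor subunit genes Cd79a and Cd79b had mean log2 intensities of 8.78 ± 0.22 and 10.56 ± 0.15 (SD, n = 6) on BAL17VII arrays and of 8.83 ± 0.08 and 10.12 ± 0.05 on BAL17 arrays. The B lineage factors Pax5 (10.44 ± 0.07 and 10.12 ± 0.09) and Ebf1 (9.37 ± 0.16 and 9.51 ± 0.09) and the inhibitory receptor gene Cd22 (8.83 ± 0.06 and 9.13 ± 0.08) were well above the array medians of 6.54 to 6.64 in both lines. Ms4a1, which encodes the B cell surface protein CD20, was the exception, with 5.30 ± 0.18 in BAL17VII and 5.31 ± 0.37 in BAL17, below the array medians in both.

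A gene was tested where its probe set exceeded its array's median on at least 6 of the 12 arrays, which 9991 genes did. Of these, limma called 3418 (34.2%) at an adjusted p under 0.05, 1840 higher (18.4%) and 1578 lower (15.8%) in BAL17VII. Which direction had more calls depended on the scaling, with 1776 higher and 1924 lower after quantile normalization again and 1496 higher and 1571 lower after median centring. For 1937 genes (19.4%) every value of one line lay above every value of the other, called no overlap below. The median difference over all tested genes was 0.003. Among called genes the median difference was 0.33 for rises and -0.31 for falls. At least a 2-fold rise was called for 150 genes and at least a 2-fold fall for 50, at least a 4-fold rise for 42 and a 4-fold fall for 3. Here and below, a gene rose or fell in BAL17VII relative to BAL17, a difference is that of mean log2 intensities with limma's standard error (SE) after the ± sign, and every adjusted p is limma's with Benjamini-Hochberg adjustment over the 9991 genes. Lists of genes are described by counts, read against the shares just given, and by their median difference, read against 0.003. A listed gene without a probe set carrying its symbol alone was not analysed, and the listed genes called on the array are the others. A gene dim in one line can pass the filter through the other, so counts over tested genes favour genes that differ. Of the genes called higher 167 had a BAL17 mean below the lowest array median, and of those called lower 54 had a BAL17VII mean below it.

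**Figure D1:**
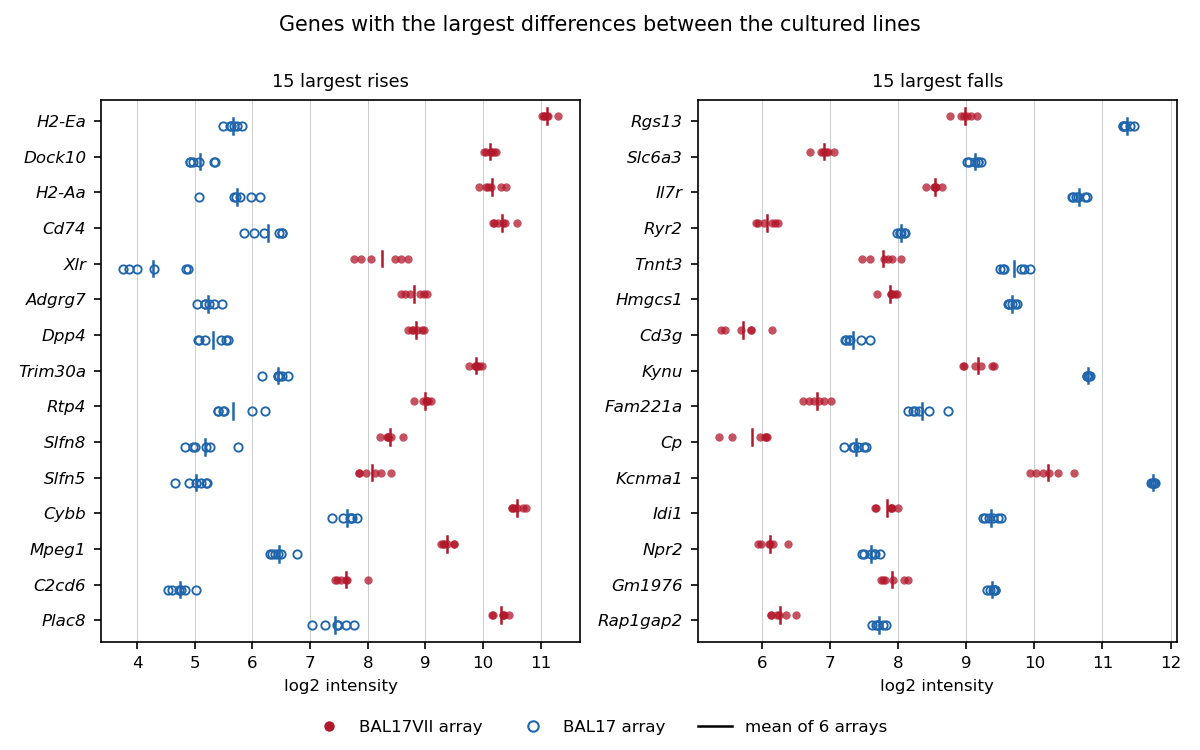
Log2 intensity of the 15 genes with the largest rises (left) and the 15 with the largest falls (right) among the called genes for which the sets of 6 values were apart; filled red points are BAL17VII arrays, open blue points BAL17 arrays and bars the means of 6 arrays. The largest rise is that of H2-Ea, by 5.45, and the largest fall that of Rgs13, at -2.37.

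The gene with the largest difference, H2-Ea, belongs to MHC class II presentation, and the genes of this pathway were mostly higher in BAL17VII. Of 16 tested genes of this pathway, 13 rose and none fell, with a median difference of 0.76, and 12 of the 16 had values without overlap. The list includes classical chains, chaperones and the protease gene Ctss, and all of its genes that were analysed passed the intensity filter. H2-DMb1 and H2-DMb2, also listed, were not analysed. H2-Ea, the alpha chain of the I-E molecule, stood between 11.03 and 11.30 (median 11.08) on BAL17VII arrays and between 5.50 and 5.82 (median 5.66) on BAL17 arrays. All BAL17 arrays were below the array medians and all BAL17VII arrays were among bright probe sets. The difference was 5.45 ± 0.07, or 43.6-fold (adjusted p = 4.08e-19). H2-Aa, the alpha chain of I-A, stood between 9.93 and 10.40 (median 10.11) in BAL17VII and between 5.07 and 6.12 (median 5.75) in BAL17, a 21.5-fold difference. Cd74, the invariant chain that guides class II molecules to the endosome, stood between 10.18 and 10.59 (median 10.30) in BAL17VII and between 5.85 and 6.52 (median 6.33) in BAL17, a 16.6-fold difference. The sets of 6 values were again far apart for both genes.

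The beta chains of the same 2 molecules differed less than the alpha chains on this scale. H2-Eb1 rose by 2.15 ± 0.09, with 6.56 to 7.09 in BAL17 and 8.84 to 9.18 in BAL17VII, and H2-Ab1 rose by 1.62 ± 0.10, with 7.17 to 7.30 in BAL17 and 8.58 to 9.18 in BAL17VII. Ciita, the transactivator on which class II transcription depends, stood between 7.29 and 8.07 (median 7.74) in BAL17VII and between 5.93 and 6.24 (median 6.13) in BAL17. Its difference of 1.58 ± 0.11 (2.99-fold, adjusted p = 3.66e-09) came with no overlap between the lines. Rfx5, Rfxank and Rfxap, the subunits of the complex that binds class II promoters beside Ciita, were the 3 genes not called, with differences of 0.03, -0.05 and 0.02. H2-DMa, a subunit of the peptide exchange factor DM, rose by 1.41 ± 0.16, with 5.76 to 6.99 in BAL17 and 7.64 to 8.27 in BAL17VII. The genes of its inhibitor DO also rose, H2-Oa by 0.87 and H2-Ob by 0.64. The reductase gene Ifi30 rose by 0.62, the protease gene Ctss by 0.53 and Marchf1, a ubiquitin ligase that removes class II molecules from the surface, by 0.42. H2 genes belong to a family of similar copies, and how far probes are shared among them was not tested.

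Promoter sequences are shown because the class II genes rose together and their promoters are known to share a Y box. The sequences are those of RefSeq on GRCm38.p6, which hold 250 bases before and 50 after a gene's start. Here and below they come from this reference build, and the promoters of the BALB/c lines themselves were not read. Of the 16 tested genes 11 matched, with 14 promoters. The motif CTGATTGG, searched on both strands, was present in 4 of the 14 (28.6%) and in 4.1% of all 32851 promoters of this length. Its share was 5.62% among promoters of tested genes, 5.22% for genes called higher and 8.07% for genes called lower. For genes called with a change of at least 1 it was 4.83% among rises and 12.8% among falls, so it was not commoner among rises in general. No motif searched here contains another. The stretches below are from the called genes with the largest differences among those with a match before the start, a choice made after the values were seen, and capitals mark the match, which is printed as its reverse complement where it lies on the other strand. In the order printed they are at chr17:34287827-34287914, minus strand, at chr17:34305765-34305852, plus strand and at chr17:34092293-34092378, plus strand.
H2-Aa: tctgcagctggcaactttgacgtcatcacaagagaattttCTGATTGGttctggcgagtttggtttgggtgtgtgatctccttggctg
H2-Eb1: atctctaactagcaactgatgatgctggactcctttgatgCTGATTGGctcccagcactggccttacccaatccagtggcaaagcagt
H2-Oa: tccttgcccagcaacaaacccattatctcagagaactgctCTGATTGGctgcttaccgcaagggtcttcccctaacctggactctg
A match is a description of the letters only. The 4 matches were in H2-Aa, H2-Eb1, H2-Oa and H2-Eb2, which is not printed. H2-Ea, Cd74, H2-Ab1 and Ciita rose as well, and no match was found for them.

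The class I pathway genes that were analysed differed by less. The heavy chain genes H2-K1, H2-D1 and H2-T23 were not analysed, so this comparison leaves them out. Of 16 tested genes, 9 rose and 1 fell, with a median of 0.20. The peptide editor gene Tapbpl rose by 0.75 ± 0.09, the immunoproteasome gene Psmb8 by 0.58 ± 0.08 and the peptide transporter gene Tap1 by 0.48 ± 0.07, each without overlap. Erap1, which trims peptides, rose by 0.35, Tap2 by 0.30 and the immunoproteasome gene Psmb10 by 0.29. Calr, a chaperone of the loading complex, fell by 0.23. Nlrc5, the class I transactivator, had a difference of -0.09 ± 0.08 (adjusted p = 0.393) and B2m, the light chain, of 0.05 ± 0.06 (adjusted p = 0.601). In a limma fit over every probe set, another probe set of Nlrc5 was called lower (-0.36, adjusted p = 0.0172). The rest of its tested probe sets were not called.

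**Figure D2:**
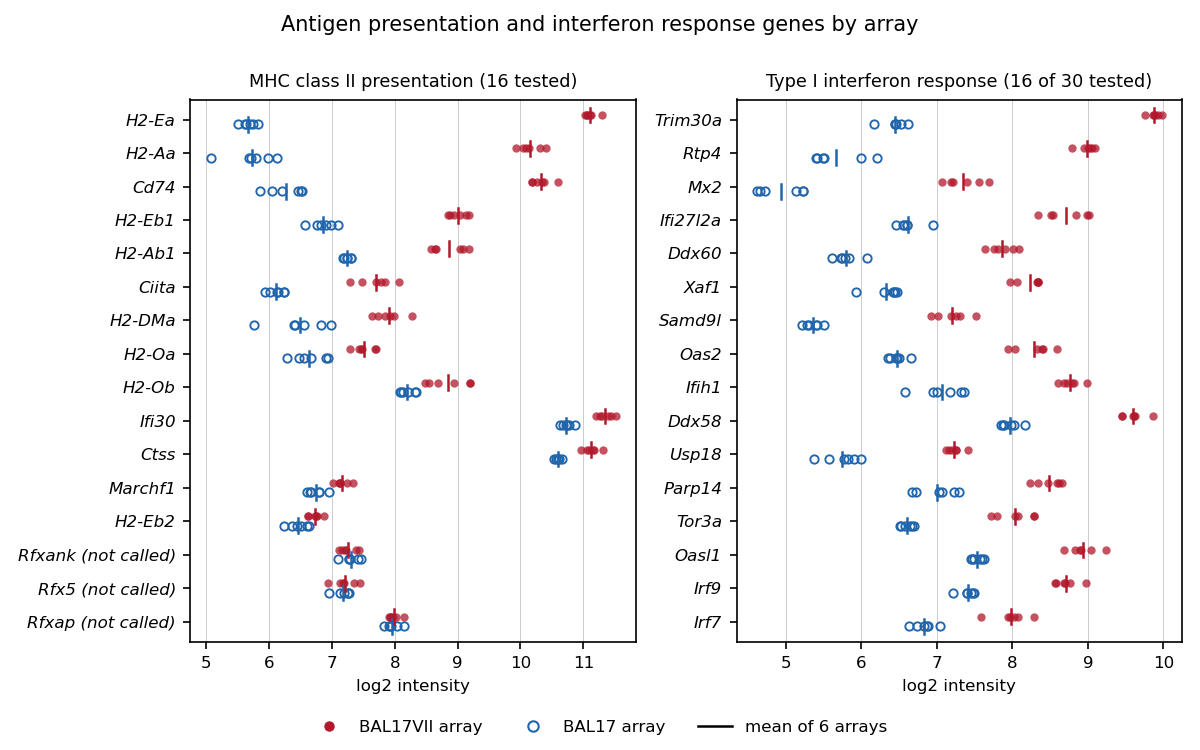
Log2 intensity by array of the 16 tested genes of MHC class II presentation (left) and of the 16 tested type I interferon response genes with the largest differences (right), drawn as in the plot of the leading genes. Class II genes from H2-Ea to Marchf1 do not overlap between the lines, while Rfx5, Rfxank and Rfxap overlap.

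Genes of the type I interferon response were higher in BAL17VII almost throughout. Of 30 tested genes, 29 rose and none fell, with a median of 1.23, and 28 had values without overlap. A further 10 genes of the list were on the array but below the filter, so the count covers the brighter members. In a fit without the filter, 9 of these 10 were called higher and none lower. Trim30a, of the TRIM family, stood between 9.75 and 9.98 (median 9.89) in BAL17VII and between 6.18 and 6.62 (median 6.45) in BAL17, a 10.8-fold difference. Rtp4 stood between 8.80 and 9.10 (median 9.02) and between 5.40 and 6.21 (median 5.50), a 9.98-fold difference. For both, the lowest BAL17VII array was more than 2 log2 units above the highest BAL17 array.

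The antiviral GTPase gene Mx2 rose by 2.42 ± 0.13, with 4.62 to 5.22 in BAL17 and 7.07 to 7.69 in BAL17VII. Ifi27l2a rose by 2.09 ± 0.11, the helicase gene Ddx60 by 2.07 ± 0.09 and Xaf1, which takes its name from an inhibitor of apoptosis that it binds, by 1.90 ± 0.10. Irf7, the factor that amplifies interferon production, stood between 7.59 and 8.28 (median 7.99) in BAL17VII and between 6.63 and 7.04 (median 6.85) in BAL17 and rose by 1.15 ± 0.10 (adjusted p = 6.91e-08). Stat2, which carries the interferon signal to the nucleus, was the 1 tested gene of the list not called, at 0.03 ± 0.08 (adjusted p = 0.774). Slfn8 and Slfn5, of the Schlafen family of interferon-regulated genes, were among the 15 largest rises. Slfn8 stood between 8.21 and 8.61 (median 8.35) in BAL17VII and between 4.84 and 5.75 (median 5.10) in BAL17, and Slfn5 between 7.84 and 8.40 (median 8.05) and between 4.65 and 5.22 (median 5.06).

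Of the 30 tested interferon response genes 21 matched a RefSeq promoter, with 26 promoters. The letters GAAANNGAA, the core of the response element bound by interferon-activated factors, were in 13 of the 26 (50%) on either strand and in 8.56% of all promoters. Among promoters of all tested genes the share was 6.63%. Among those of genes called higher it was 9.02%, and of genes called higher by at least 1 it was 22.8%. The stretches shown come from the called genes with the largest differences that had a match before the start. They are at chr7:104465194-104465268, minus strand, at chr8:61927994-61928086, plus strand and at chr2:62646319-62646407, minus strand, and capitals mark the match. Ddx60 holds the same match at 2 places.
Trim30a: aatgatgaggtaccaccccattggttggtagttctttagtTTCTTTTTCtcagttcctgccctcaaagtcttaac
Ddx60: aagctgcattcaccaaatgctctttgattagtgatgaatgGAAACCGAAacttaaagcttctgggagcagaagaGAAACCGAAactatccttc
Ifih1: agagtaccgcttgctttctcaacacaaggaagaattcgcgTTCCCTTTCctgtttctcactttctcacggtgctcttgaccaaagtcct
Ifih1 encodes the RNA sensor MDA5 and stood between 8.60 and 8.98 (median 8.76) in BAL17VII and between 6.58 and 7.36 (median 7.09) in BAL17, a rise of 1.71 ± 0.11. Stat2, which was not called, also holds a match.

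Receptors and sensors of the interferon system were higher in part. Of 17 tested genes, 10 rose, none fell and 7 were not called (median 0.30). Those not called include the type I receptor gene Ifnar1 (0.06, adjusted p = 0.612) and the DNA sensor gene Cgas (0.17, adjusted p = 0.149). Sting1, the adaptor of cytosolic DNA sensing, stood between 8.81 and 9.36 (median 9.17) in BAL17VII and between 7.57 and 8.10 (median 7.67) in BAL17, a rise of 1.39 ± 0.10. The kinase gene Jak2 rose by 1.22 ± 0.07, the interferon gamma receptor genes Ifngr2 and Ifngr1 by 0.64 and 0.46, the type I receptor gene Ifnar2 by 0.40 and the transcription factor gene Irf1 by 0.58. All 6 of these genes had values without overlap, but a second probe set of Irf1 was not called (0.08, adjusted p = 0.469). Of the GTPases and chemokines typical of interferon gamma, 10 of 12 on the array were below the filter. Both tested genes rose, the GTPase gene Irgm1 by 1.14 ± 0.09 and the chemokine gene Cxcl10 by 0.65 ± 0.09. In a fit without the filter 4 of the 10 dim genes were called higher and none lower.

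Toll-like receptors sense microbial molecules. The genes listed for these receptors, their partners and their adaptors were mostly higher among those bright enough to test. Of 13 tested genes, 11 rose and none fell, with a median of 0.64. A further 6 were below the filter, and without it 1 of these was called lower and none higher. The Toll-like receptor genes tested were Tlr1, Tlr2, Tlr6 and Tlr9, while Tlr3, Tlr4, Tlr7, Tlr8 and Tlr13 were below the filter. Tlr1 stood between 8.23 and 8.50 (median 8.36) in BAL17VII and between 5.86 and 6.21 (median 5.96) in BAL17, a 5.12-fold difference with no overlap. Its partner genes Tlr2 and Tlr6 rose by 0.91 ± 0.09 and 0.76 ± 0.11, and Cd180, a related receptor of B cells, by 0.77 ± 0.10. Myd88, the adaptor used by most of these receptors, rose by 0.69 ± 0.07, and Unc93b1, which carries endosomal receptors to their compartment, by 0.68 ± 0.06. Tlr9, the receptor for CpG DNA, rose by 0.27 ± 0.06, and Tlr7 was below the filter at 4.55 ± 0.27 and 4.63 ± 0.18. Of 21 monocyte and macrophage markers, genes of cells rich in these receptors, 6 passed the filter and rose and 15 were below it, 1 of which was called higher without the filter. Their part in this result was not tested.

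Among subunits and targets of NF-kB, 16 of 19 tested genes rose and none fell (median 0.36). Another 4 were below the filter, and none of these was called without it. Plek, the gene of a protein kinase C substrate of blood cells, stood between 9.75 and 10.08 (median 9.86) in BAL17VII and between 6.89 and 7.32 (median 7.16) in BAL17 and rose by 2.75 ± 0.08. The next gene differed much less. Birc3, an inhibitor of apoptosis, rose by 1.01 ± 0.07, the costimulatory receptor gene Cd40 by 0.85 ± 0.08, the subunit gene Rel by 0.67 ± 0.07, the cytokine subunit gene Ebi3 by 0.60 ± 0.09 and the negative regulator gene Tnfaip3 by 0.55 ± 0.07.

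Signalling genes downstream of the B cell receptor were higher in most cases. Of 24 tested genes, 17 rose and 1 fell, with a median of 0.41. Prkcb, the protein kinase C of the receptor pathway, stood between 7.95 and 8.33 (median 8.13) in BAL17VII and between 6.72 and 7.15 (median 6.87) in BAL17. The phosphatase gene Ptpn22 rose by 1.05 ± 0.09, the PI3 kinase genes Pik3r1 and Pik3cd by 0.89 ± 0.09 and 0.70 ± 0.10, the adaptor gene Dapp1 by 0.78 ± 0.12 and the inositol phosphatase gene Inpp5d by 0.74 ± 0.06. Among these, Ptpn22 and Inpp5d are known as brakes on receptor signalling and Prkcb and Pik3cd as its effectors. Bank1, a scaffold of the same pathway, was the gene that fell, by 0.36 ± 0.05. Cd79a had a difference of -0.05 ± 0.09 (adjusted p = 0.704) and Cd79b rose by 0.44 ± 0.07 (adjusted p = 7.84e-05).

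Transcription factors of the B lineage moved in both directions. Of 28 tested genes, 13 rose and 4 fell (median 0.15). Another 4 were below the filter, of which 1 was called lower and none higher without it. Spi1, the factor PU.1 of B and myeloid cells, stood between 8.97 and 9.57 (median 9.20) in BAL17VII and between 7.50 and 7.94 (median 7.72) in BAL17, and rose by 1.50 ± 0.09. Lmo2 rose by 1.37 ± 0.16, Bcl11a by 0.99 ± 0.07 and Bcl6, the repressor required for germinal centres, by 0.85 ± 0.09. Spib, the close relative of Spi1, went the other way, with 8.24 to 8.60 in BAL17 and 7.62 to 7.95 in BAL17VII, a difference of -0.66 ± 0.08. Bach2, which holds back plasma cell differentiation, differed by -0.63 ± 0.08, Mef2c by -0.42 ± 0.05 and Myb by -0.22 ± 0.05. Pax5 rose by 0.32 ± 0.06 and Irf8 by 0.30 ± 0.08, while Ebf1 (-0.15 ± 0.07, adjusted p = 0.147), Irf4 (0.17 ± 0.09, adjusted p = 0.173) and Xbp1 (0.23 ± 0.09, adjusted p = 0.061) were not called. Prdm1 was below the filter, with means of 6.30 in BAL17VII and 5.76 in BAL17 and overlapping values. In the limma fit without the filter it was called higher (adjusted p = 0.0145).

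The tested genes of germinal centre, plasma and precursor B cells gave no common direction. Of 13 tested germinal centre genes, 4 rose and 5 fell, of 16 plasma cell genes 4 rose and 4 fell, and of 7 precursor genes 2 rose and 3 fell. Below the filter were 4, 4 and 8 more. Without it 2 of the dim plasma cell genes were called higher and none lower, and 2 of the dim precursor genes were called lower and none higher. The dim precursor genes Rag2 and Dntt differed by -0.73 and -0.44. Rgs13, which limits chemokine receptor signals in B cells of germinal centres, stood between 8.77 and 9.16 (median 8.99) in BAL17VII and between 11.30 and 11.47 (median 11.32) in BAL17, the largest fall at 5.17-fold. Il7r, the interleukin 7 receptor of precursor B cells and T cells, stood between 8.41 and 8.65 (median 8.55) and between 10.56 and 10.77 (median 10.63), a 4.32-fold fall. Both genes remained bright in BAL17VII. Within the same lists, Flt3, a cytokine receptor of early progenitors, rose by 1.70 ± 0.09 and the B lineage gene Vpreb3 by 0.58 ± 0.07, while the recombinase gene Rag1 differed by -0.70 ± 0.11 and Lef1 by -0.37 ± 0.09. Among germinal centre genes the DNA repair and mutation genes Neil1, Polh and Msh6 differed by -0.73, -0.56 and -0.50, and Stap1 and Gna13 rose by 0.43 and 0.20. Slamf7, a surface receptor of plasma cells, stood between 7.88 and 8.32 (median 8.02) in BAL17VII and between 9.34 and 9.50 (median 9.46) in BAL17. The other called plasma cell genes were Derl3 (0.69), Sec11c (0.39), Hsp90b1 (-0.37), Herpud1 (0.37), Edem1 (-0.33), Creld2 (-0.20) and the transcription elongation factor gene Ell2 (0.21).

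Among B cell surface molecules, 7 of 18 tested genes rose and 4 fell (median 0.05). Another 8 were below the filter, of which 3 were called higher and none lower without it. Among the tested genes Cd40 rose most. The tetraspanin genes Cd37 and Cd82 rose by 0.70 ± 0.08 and 0.60 ± 0.10, another tetraspanin gene, Cd81, differed by -0.33 ± 0.06, and the inhibitory Fc receptor gene Fcgr2b rose by 0.39 ± 0.06. Cd55, which protects cells from complement, stood between 7.30 and 7.82 (median 7.51) in BAL17VII and between 8.07 and 8.83 (median 8.50) in BAL17, a difference of -0.96 ± 0.11. Cd22 and Cd24a differed by -0.30 ± 0.06 and -0.28 ± 0.08.

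Ligands and receptors for T cell contact were called in 1 direction. Of 10 tested costimulation and checkpoint genes 4 rose and none fell, and 14 more were below the filter, of which 3 were called higher and none lower without it. Cd48, a ligand of the SLAM receptor 2B4, stood between 8.08 and 8.50 (median 8.18) in BAL17VII and between 4.93 and 5.71 (median 5.52) in BAL17, a 6.95-fold difference. Cd80, a ligand of CD28, stood between 8.54 and 8.75 (median 8.63) and between 6.79 and 7.20 (median 7.03), a rise of 1.63 ± 0.07, and its second probe set gave a rise of 2.94. Ly9 rose by 0.45 ± 0.07 and Cd47 by 0.33 ± 0.06.

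Cytokine receptor genes of the JAK-STAT family rose in 11 of 18 tested cases and fell in 2 (median 0.29). Below the filter were 12 more, of which 3 were called higher and none lower without it. The tested genes that fell were Il7r and Pim2, a kinase gene downstream of these receptors, which differed by -0.60 ± 0.06. Il9r rose by 1.002 ± 0.06, Il6ra by 0.79 ± 0.06, Stat6 by 0.57 ± 0.07 and Csf2ra by 0.53 ± 0.07. Among the cytokine genes themselves 3 of 7 tested rose and 1 fell. Below the filter were 11 more, of which 1 was called higher and 1 lower without it. Il1b, the interleukin 1 beta gene, stood between 8.01 and 8.32 (median 8.14) in BAL17VII and between 5.80 and 6.41 (median 6.13) in BAL17, a rise of 2.05 ± 0.10. Flt3l, the ligand of Flt3, rose by 0.73 ± 0.11 and Il16 by 0.25 ± 0.09, while the lymphotoxin gene Ltb differed by -0.27 ± 0.07. Nlrp3, Aim2 and Pycard, the genes of inflammasome proteins that lead to processing of interleukin 1 beta, rose by 0.84 ± 0.11, 0.56 ± 0.08 and 0.36 ± 0.09. In their list of caspases and death receptors 6 of 15 tested genes rose and Casp4 fell, by 0.59 ± 0.07. Ripk3 and Fadd of that list rose by 0.35 ± 0.11 and 0.27 ± 0.06.

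Genes of movement and adhesion included some of the largest rises. Of 27 tested regulators of small GTPases and heterotrimeric G proteins, 12 rose and none fell, while the median was 0.11. Of 4 more below the filter 2 were called higher and none lower without it. Dock10, an exchange factor for small GTPases, stood between 10.01 and 10.22 (median 10.14) in BAL17VII and between 4.92 and 5.36 (median 5.02) in BAL17, a 32.6-fold difference (adjusted p = 3.62e-17). No other gene of the list differed by as much. Dock8, of the same family, rose by 1.44 ± 0.07, with 7.74 to 8.03 in BAL17 and 9.21 to 9.52 in BAL17VII, and Arhgef6 (0.76 ± 0.06), Arhgdib (0.73 ± 0.07), Arhgap15 (0.70 ± 0.09) and the actin regulator gene Coro1a (0.70 ± 0.07) followed.

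Adhesion genes moved both ways, with 9 of 18 tested higher, 5 lower and 12 below the filter. Dpp4, a surface peptidase also called CD26, stood between 8.69 and 8.98 (median 8.81) in BAL17VII and between 5.06 and 5.58 (median 5.32) in BAL17, a 11.5-fold difference. Cd2, a receptor for CD48 in the mouse, stood between 11.37 and 11.65 (median 11.49) and between 9.37 and 9.60 (median 9.48), so it was bright in both lines and rose by 2.02 ± 0.06. Its ligand gene Cd48 rose as described above. The hyaluronan receptor gene Cd44 rose by 1.40 ± 0.06 and the integrin gene Itga4 by 1.10 ± 0.06, each without overlap. The integrin genes Itgav and Itga6 differed by -0.91 ± 0.07 and -0.91 ± 0.13, and Alcam, an adhesion molecule of the immunoglobulin family, stood between 7.19 and 7.42 (median 7.29) in BAL17VII and between 8.45 and 8.54 (median 8.50) in BAL17. Cd99l2 and Jam3 differed by -0.31 and -0.27. Itgal and Itgb7 were below the filter at 6.32 ± 0.21 and 6.68 ± 0.09 in BAL17VII and 6.26 ± 0.21 and 6.49 ± 0.11 in BAL17.

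Of 12 tested chemokine and positioning genes, 5 rose and 2 fell. Another 16 were below the filter, of which 2 were called higher and none lower without it. Ccl5, a chemokine for T cells and monocytes, stood between 10.24 and 10.55 (median 10.41) in BAL17VII and between 7.65 and 7.97 (median 7.74) in BAL17, a 6.13-fold difference. The leukotriene receptor gene Cysltr1 rose by 0.79 ± 0.07, the sphingosine phosphate receptor gene S1pr1 by 0.43 ± 0.07 and the lymph node homing receptor gene Ccr7 by 0.40 ± 0.09. Ccr6 and the prostaglandin receptor gene Ptger4 differed by -0.33 ± 0.10 and -0.28 ± 0.07. Cxcr4 was not called (0.11 ± 0.06, adjusted p = 0.158), and Cxcr5 was below the filter in both lines.

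**Figure D3:**
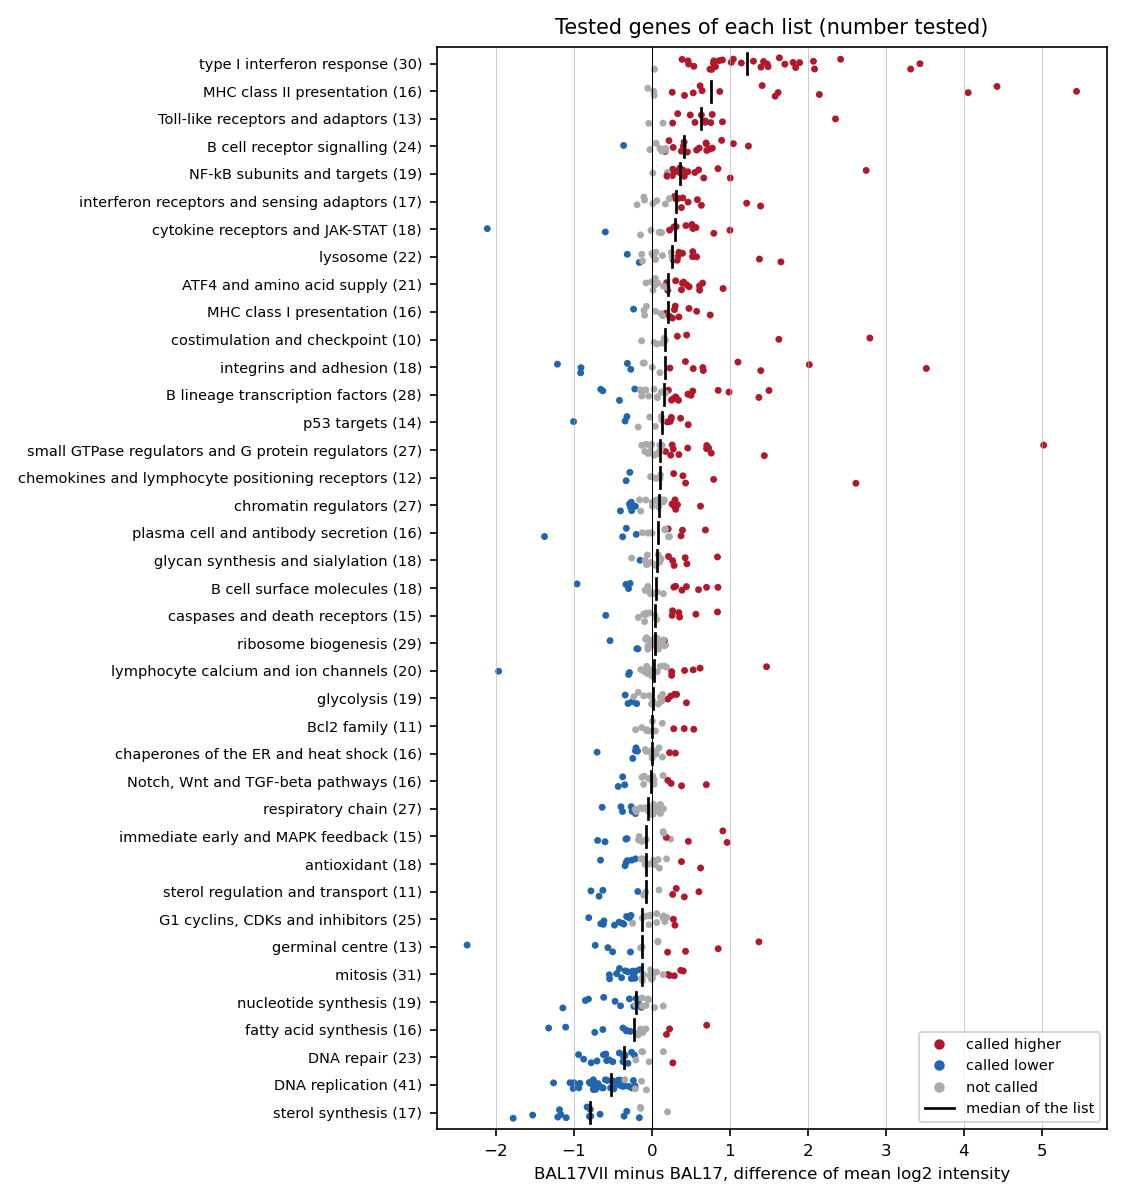
Difference between the lines for each tested gene of the lists with at least 10 tested genes, in order of the list median; points are genes, red where called higher, blue where called lower and grey where not called, and black bars are list medians. Type I interferon response and MHC class II presentation stand at the top with medians of 1.23 and 0.76, DNA replication and sterol synthesis at the bottom with -0.53 and -0.79.

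DNA replication genes were lower in BAL17VII. Of 41 tested genes 37 fell and none rose, with a median of -0.53, and 34 had values without overlap. The differences were mostly under 2-fold, unlike the leading rises. Mcm4, a subunit of the replicative helicase, stood between 8.66 and 8.94 (median 8.71) in BAL17VII and between 9.91 and 10.14 (median 10.04) in BAL17, a difference of -1.26 ± 0.07 (2.4-fold, adjusted p = 1.74e-10). The subunit genes Mcm6 and Mcm3 differed by -0.999 ± 0.07 and -0.94 ± 0.08. Cdc6, which loads the helicase at origins, stood between 6.72 and 7.47 (median 7.23) and between 7.96 and 8.43 (median 8.25). Uhrf1, which maintains DNA methylation behind the fork, differed by -1.01 ± 0.07 and Tipin, of the fork protection complex, by -0.92 ± 0.06.

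Of the 41 replication genes 33 matched a RefSeq promoter, with 41 promoters. The E2F motifs TTTGGCGC and TTTCCCGC, searched on both strands, were in 12 of the 41 (29.3%) and in 1.56% of all promoters. Among promoters of all tested genes the share was 3.24%, among those of genes called lower 6.29% and among those of genes called higher 1.67%. E2F factors are the textbook regulators of replication genes at the start of S phase. The stretches shown are at chr11:98907973-98908060, plus strand, at chr1:128359706-128359855, minus strand and at chrX:93632246-93632333, minus strand, with matches in capitals.
Cdc6: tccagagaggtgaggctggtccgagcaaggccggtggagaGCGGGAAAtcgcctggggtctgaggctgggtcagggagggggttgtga
Mcm6: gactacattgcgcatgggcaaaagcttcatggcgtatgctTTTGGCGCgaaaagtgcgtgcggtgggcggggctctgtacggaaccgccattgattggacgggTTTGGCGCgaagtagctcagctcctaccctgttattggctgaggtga
Pola1: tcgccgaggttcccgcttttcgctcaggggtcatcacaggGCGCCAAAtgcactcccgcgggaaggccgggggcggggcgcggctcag
Pola1, the catalytic subunit of the primase-associated polymerase, differed by -0.75 ± 0.07.

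Genes that supply and repair DNA followed the same direction. Of 19 tested nucleotide synthesis genes 11 fell and none rose (median -0.20). Rrm2 and Rrm1, the subunits of ribonucleotide reductase, differed by -1.14 ± 0.06 and -0.85 ± 0.07, Dut by -0.81 ± 0.06, Nme1 by -0.62 ± 0.07, Pfas by -0.47 ± 0.08 and Tyms by -0.40 ± 0.09. Of 23 tested DNA repair genes, 17 fell and 1 rose (median -0.36). Brca1, of homologous recombination, stood between 7.44 and 8.04 (median 7.73) in BAL17VII and between 8.61 and 8.76 (median 8.67) in BAL17. The nuclease gene Exo1 differed by -0.88 ± 0.07, Rad51c by -0.78 ± 0.07, the helicase gene Blm by -0.70 ± 0.05, the checkpoint kinase gene Chek1 by -0.62 ± 0.07 and Prkdc, of end joining, by -0.59 ± 0.05. Rad50 rose, by 0.27 ± 0.06.

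Mitotic genes were split. Of 31 tested, 15 fell and 5 rose (median -0.12), while a fit over all 32 arrays called 4 lower and 2 higher. The kinetochore genes Nuf2 and Ndc80 differed by -0.55 ± 0.06 and -0.54 ± 0.07, Birc5 by -0.45 ± 0.07, the checkpoint kinase gene Bub1 by -0.42 ± 0.06 and the topoisomerase gene Top2a by -0.39 ± 0.06. The genes that rose were Aurka (0.40 ± 0.10), Kif20a (0.37), Cenpa (0.29), Kif23 (0.23) and Cenpe (0.21), with roles in the spindle, the centromere or cytokinesis. The proliferation marker Mki67 was not called (-0.13 ± 0.08, adjusted p = 0.24). Of 25 tested genes of the G1 phase, 11 fell and 2 rose (median -0.12). Cyclin E2, from Ccne2, stood between 8.18 and 8.56 (median 8.25) in BAL17VII and between 8.93 and 9.41 (median 9.13) in BAL17. E2f2 (-0.66 ± 0.10), Skp2 (-0.62 ± 0.06), E2f8 (-0.62 ± 0.07), Cdc25a (-0.48 ± 0.09) and Rbl1 (-0.42 ± 0.06) fell, while the cell cycle inhibitor genes Cdkn2a and Cdkn1b rose by 0.30 ± 0.10 and 0.28 ± 0.07. A second probe set of Cdkn1b missed the threshold (0.22, adjusted p = 0.0589). Myc was not called (0.15 ± 0.06, adjusted p = 0.0546). Growth rates of the lines are not given in the labels, and their part in these differences was not tested. Ribosome biogenesis genes had 1 rise (Nop14, 0.16) and 3 falls (Nolc1, -0.54, Utp20, -0.19, and Wdr43, -0.18) among 29 tested.

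Sterol synthesis was the list with the lowest median. Of 17 tested genes 14 fell and none rose, with a median of -0.79, and 12 had values without overlap. Hmgcs1, the synthase at the entry of the mevalonate pathway, stood between 7.69 and 7.98 (median 7.91) in BAL17VII and between 9.61 and 9.74 (median 9.65) in BAL17, a 3.43-fold fall (adjusted p = 2.94e-13). Idi1, which makes the isoprenoid unit dimethylallyl diphosphate, stood between 7.67 and 7.999 (median 7.90) and between 9.24 and 9.50 (median 9.36), a 2.89-fold fall. The genes of later steps followed, Sqle at -1.17 ± 0.06, Lss at -1.10 ± 0.07, Msmo1 at -1.21 ± 0.07 and Nsdhl at -1.19 ± 0.10. No array of BAL17VII reached the lowest array of BAL17 for any of these 6 genes. Of the 17 genes 14 matched a promoter, with 17 promoters. The sterol element core CACCCCAC was in 1 of the 17 (5.88%), in 2.87% of all promoters and in 3.2% of those of tested genes. The single match is in Hmgcs1, at chr13:119690175-119690262, plus strand, and is shown in capitals.
Hmgcs1: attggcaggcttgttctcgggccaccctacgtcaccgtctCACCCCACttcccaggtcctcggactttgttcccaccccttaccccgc
The Y box letters were in 6 of the 17 sterol promoters (35.3%) and in 10 of the 41 replication promoters (24.4%), so in these windows they are not confined to class II genes. The E box CACGTG was in 3 of the 17 sterol promoters (17.6%), in 7.15% of all promoters and in 10.2% of those of tested genes.

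**Figure D4:**
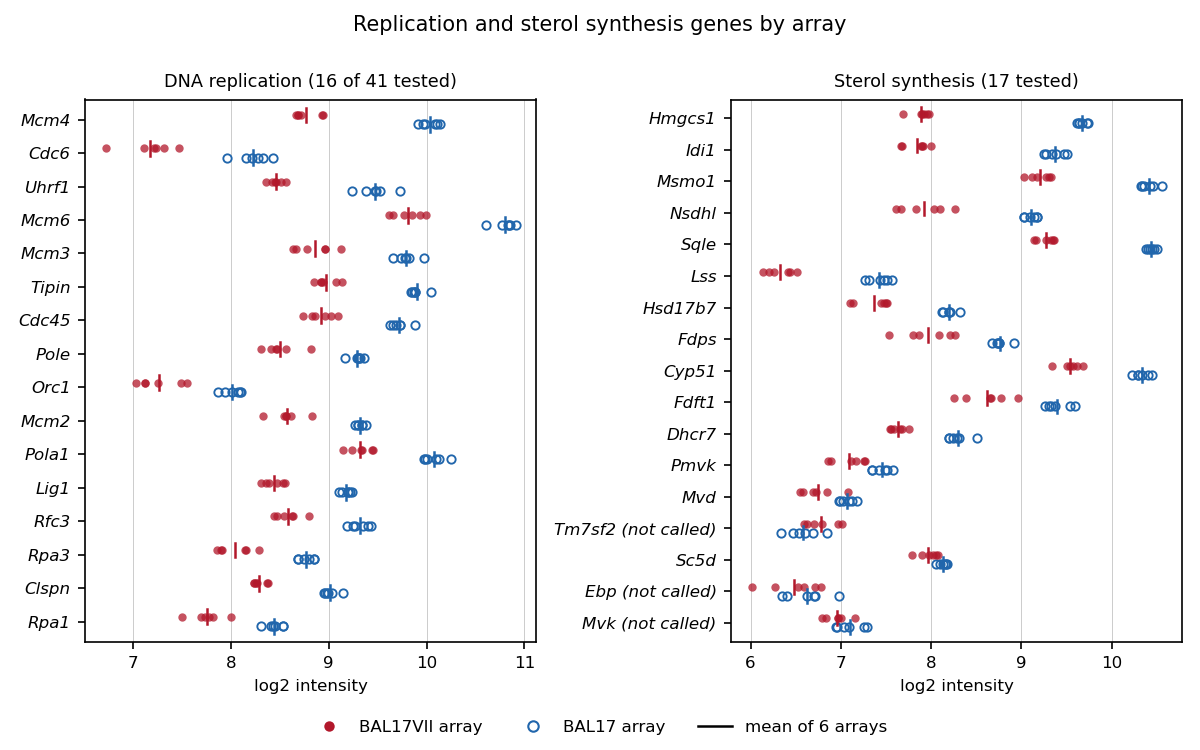
Log2 intensity by array of the 16 tested DNA replication genes with the largest differences (left) and of the 17 tested sterol synthesis genes (right), drawn as in the plot of the leading genes. BAL17VII arrays stand to the left of BAL17 arrays for the leading genes of both lists, and 3 sterol genes, Tm7sf2, Ebp and Mvk, were not called.

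Regulators and neighbours of the sterol pathway were split. Of 11 tested genes of sterol regulation and transport 4 rose and 4 fell. Srebf2, the transcription factor that drives sterol synthesis, stood between 8.07 and 8.31 (median 8.29) in BAL17VII and between 8.97 and 9.10 (median 8.99) in BAL17, and differed by -0.78 ± 0.06. Srebf1, which drives fatty acid synthesis, differed by -0.18 ± 0.06, the sensor gene Insig1 by -0.63 ± 0.08 and the transfer protein gene Stard4 by -0.68 ± 0.06. Npc1 and Npc2, which export cholesterol from lysosomes, rose by 0.60 ± 0.06 and 0.42 ± 0.07, and the ubiquitin ligase gene Mylip by 0.31 ± 0.08. Of 16 tested fatty acid synthesis genes 8 fell and 3 rose. The desaturase genes Scd2, Scd1 and Fads2 differed by -1.32 ± 0.10, -1.11 ± 0.09 and -0.63 ± 0.08, the elongase gene Elovl6 by -0.73 ± 0.07 and Fasn by -0.37 ± 0.08. Acss2, which makes acetyl-CoA from acetate, rose by 0.70 ± 0.09, and Acsl5 and Elovl1 rose by 0.23 and 0.19.

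Lysosomal genes rose in 10 of 22 tested cases and fell in 2 (median 0.25). The cathepsin genes Ctsl and Ctsh stood between 7.16 and 7.84 (median 7.62) and between 8.66 and 8.98 (median 8.79) in BAL17VII and between 5.48 and 6.30 (median 5.90) and between 7.16 and 7.63 (median 7.45) in BAL17. They rose by 1.66 ± 0.14 and 1.38 ± 0.08, Ctsb by 0.57 ± 0.07, the hexosaminidase gene Hexa by 0.52 ± 0.09, the lipase gene Lipa by 0.52 ± 0.09 and the autophagy receptor gene Sqstm1 by 0.39 ± 0.06. Gusb and Map1lc3b differed by -0.32 and -0.16, and a second probe set of Map1lc3b was not called (-0.11, adjusted p = 0.244).

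Genes of the ATF4 response and amino acid supply rose in 12 of 21 tested cases and none fell (median 0.20). Chac1, which degrades glutathione, rose by 0.91 ± 0.10, Trib3 by 0.65 ± 0.11, the transporter genes Slc1a4 and Slc7a1 by 0.61 ± 0.07 and 0.48 ± 0.06, Cth, which makes cysteine, by 0.61 ± 0.08 and the factor gene Ddit3 by 0.44 ± 0.08. Chaperones of the endoplasmic reticulum and heat shock had 2 rises and 5 falls among 16 tested, led by the stress sensor gene Ern1 at -0.70 ± 0.08. Antioxidant genes had 2 rises, Gpx1 (0.62 ± 0.10) and Hmox1 (0.38 ± 0.07), and 6 falls, led by Gclc, which makes glutathione precursors, at -0.66 ± 0.06. The respiratory chain had 6 falls and no rise among 27 tested, with a median of -0.05, led by Ndufa4 at -0.64 ± 0.06. Glycolysis had 5 rises and 4 falls among 19 tested, none beyond the 0.44 ± 0.07 of the glucose transporter gene Slc2a3.

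Of 11 tested Bcl2 family genes 3 rose and none fell, Pmaip1 (0.54 ± 0.09), Bak1 (0.42 ± 0.07) and Mcl1 (0.28 ± 0.07), and Bcl2 was not called (0.05 ± 0.06, adjusted p = 0.597). Of 14 tested p53 targets 6 rose and 3 fell. Trp53inp1 differed most, by -1.004 ± 0.07, and the other called genes by less than 0.5. Of 27 tested chromatin regulators 6 rose and 7 fell, led by Satb1 at 0.62 ± 0.06 and Kdm6a at -0.40 ± 0.08. Kdm6a and Eif2s3x (-0.19) were the 2 called genes, both lower, of 4 tested sex-linked genes. Of 15 tested immediate early and MAPK feedback genes 4 rose and 4 fell, with Fosb (0.97 ± 0.10) and Atf3 (0.91 ± 0.07) the largest rises and Dusp10 (-0.70 ± 0.09) and Spred2 (-0.60 ± 0.10) the largest falls. Of 16 tested genes of the Notch, Wnt and TGF-beta pathways 4 rose and 3 fell, led by Notch2 at 0.70 ± 0.08. Of 18 tested glycan synthesis genes 6 rose and 1 fell, led by Man1a at 0.84 ± 0.11.

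Ion channel genes held 2 large differences in opposite directions. Of 20 tested genes 6 rose and 3 fell (median 0.03). Ryr2, a calcium release channel best known from heart muscle, stood between 5.91 and 6.24 (median 6.09) in BAL17VII and between 7.98 and 8.11 (median 8.04) in BAL17, a 3.91-fold fall to below the array medians. P2rx7, an ATP-gated channel, stood between 7.65 and 8.06 (median 7.80) and between 6.25 and 6.47 (median 6.35) and rose by 1.47 ± 0.08. Trpv2, Itpr2 and Orai2 rose by 0.62, 0.53 and 0.42, though a second probe set of Orai2 missed the threshold (0.27, adjusted p = 0.0503). Kcnma1, a calcium-activated potassium channel outside this list, was bright in both lines, between 9.94 and 10.59 (median 10.17) in BAL17VII and between 11.71 and 11.77 (median 11.74) in BAL17, and differed by -1.54 ± 0.09. In tryptophan breakdown, Kynu, which cleaves kynurenine, stood between 8.95 and 9.41 (median 9.18) in BAL17VII and between 10.77 and 10.82 (median 10.78) in BAL17, a 3.05-fold fall. The downstream gene Haao rose by 0.74 ± 0.09.

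Several of the largest differences were in genes outside the pathways above. Xlr, an X-linked lymphocyte-regulated gene of a family of similar copies, stood between 7.76 and 8.70 (median 8.27) in BAL17VII and between 3.75 and 4.88 (median 4.15) in BAL17, a 15.7-fold difference and the largest SD in each line among the 15 leading rises. Adgrg7, an adhesion G protein-coupled receptor gene, stood between 8.57 and 9.03 (median 8.81) and between 5.03 and 5.47 (median 5.21), a 11.8-fold difference. C2cd6 rose by 2.87 ± 0.10 and Plac8 by 2.87 ± 0.10, and neither gene's values overlapped. Among the falls, Slc6a3, the dopamine transporter gene, stood between 6.71 and 7.06 (median 6.92) in BAL17VII and between 9.01 and 9.21 (median 9.15) in BAL17, a 4.65-fold difference. Tnnt3, a troponin gene of fast muscle, stood between 7.47 and 8.04 (median 7.82) and between 9.50 and 9.94 (median 9.68). Fam221a (-1.54 ± 0.09), the copper carrier gene Cp (-1.54 ± 0.11), the natriuretic peptide receptor gene Npr2 (-1.48 ± 0.07), Gm1976 (-1.47 ± 0.07) and Rap1gap2, which inactivates Rap1 (-1.45 ± 0.07), completed the 15 largest falls. Sympk was picked out after its values were seen, because its probe sets disagreed. A pair of them with identical values gave a rise of 2.47, while the other, with means of 8.94 in BAL17VII and 9.01 in BAL17, gave -0.07 (adjusted p = 0.463).

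Markers of other cell types were looked at in both lines. In bulk RNA, fewer cells of a type and less RNA per cell cannot be told apart. Of 21 monocyte and macrophage markers 6 passed the filter and rose, while 15 were below it. Mpeg1, Fcer1g and Csf1r were near or below the array medians in BAL17 and passed through their BAL17VII arrays, so that their passing and their rise are not independent. Cybb, of the phagocyte oxidase, stood between 10.50 and 10.74 (median 10.56) in BAL17VII and between 7.39 and 7.81 (median 7.70) in BAL17, and Mpeg1 between 9.27 and 9.50 (median 9.35) and between 6.30 and 6.77 (median 6.42), each without overlap. Tyrobp rose by 1.08 ± 0.05, Fcer1g by 1.13 ± 0.08, Cd68 by 0.91 ± 0.08 and Csf1r by 0.76 ± 0.07. Defining markers outside these were dim in both lines, with means of 5.23 ± 0.31 and 5.43 ± 0.39 for the lysozyme gene Lyz2, 5.39 ± 0.12 and 5.33 ± 0.23 for Cd14 and 6.41 ± 0.15 and 5.12 ± 0.19 for Adgre1, in BAL17VII and BAL17. Adgre1 was nevertheless the 1 marker of the 15 called higher in a fit without the filter. The mean over all 21 markers was 6.49 to 6.62 on BAL17VII arrays and 5.94 to 6.09 on BAL17 arrays. Their part in the rises described above was not tested.

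Of 22 T and NK cell markers 3 passed and 2 fell, Cd3g and Cd247, and without the filter 1 of the other 19 was called higher. Cd3g, a subunit of the T cell receptor complex, stood between 5.40 and 6.14 (median 5.77) in BAL17VII and between 7.23 and 7.59 (median 7.29) in BAL17, a 3.07-fold fall, while Cd3e (6.45 ± 0.06 and 6.63 ± 0.26) and Cd3d (4.65 ± 0.10 and 4.54 ± 0.31) were below the filter in both lines. Of 11 dendritic cell markers 2 passed, Flt3 and Bst2, and both rose. Of 16 brain cell markers 5 passed and none was called, and of 12 fibroblast and endothelial markers 3 passed and Pecam1 rose, by 0.53 ± 0.08. The mean over all 16 brain cell markers was 6.07 to 6.36 on BAL17VII arrays and 6.17 to 6.34 on BAL17 arrays.

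**Figure D5:**
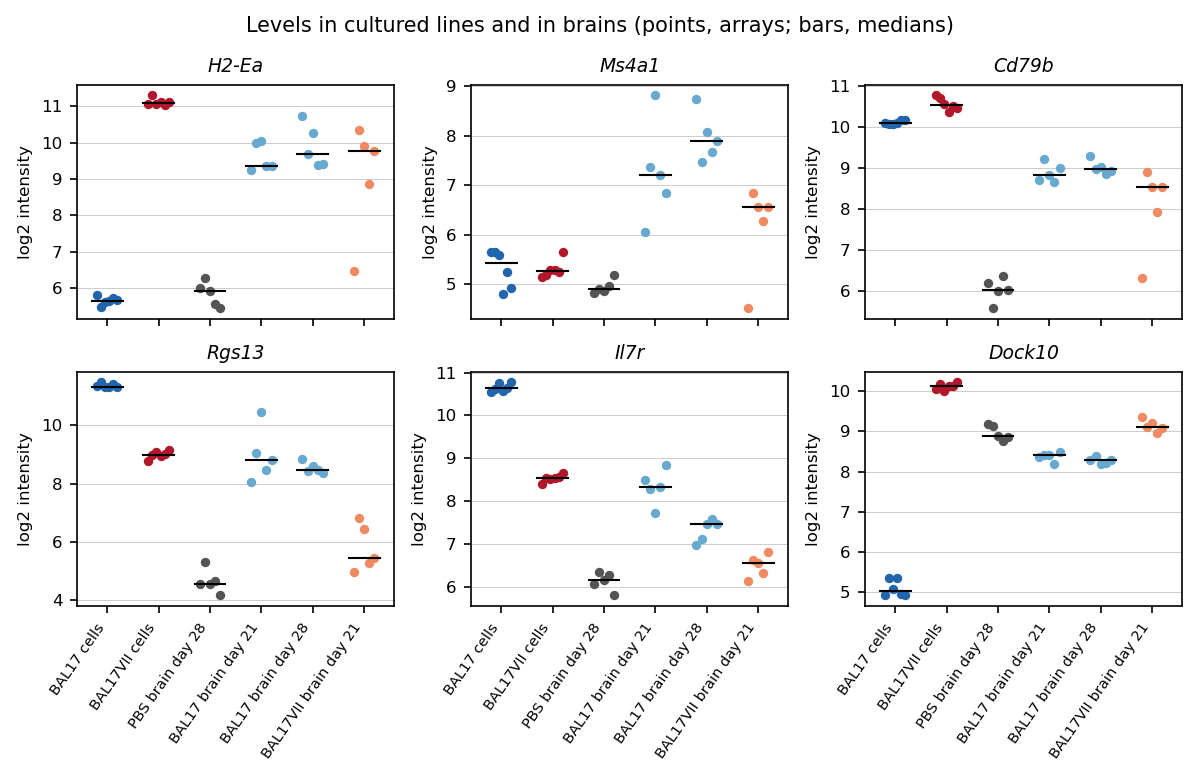
Log2 intensity by array of 6 genes in the cultured lines (6 arrays each) and in brains (5 arrays each) that received PBS or cells of a line; points are arrays and bars medians. H2-Ea is below 6 in cultured BAL17 cells and above 9 in every brain with BAL17 cells, while PBS brains stay below 6.5.

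Levels of the leading genes in the brains are given as a description, since a brain array mixes tumour and host RNA. H2-Ea was between 5.45 and 6.27 (median 5.94) in PBS brains, between 9.26 and 10.03 (median 9.37) in BAL17 brains at day 21 and between 9.38 and 10.72 (median 9.70) at day 28, and between 6.46 and 10.35 (median 9.78) in BAL17VII brains. All BAL17 brains were thus above every array of cultured BAL17 cells for this gene. Ms4a1, dim in both cultured lines, was between 4.83 and 5.19 (median 4.91) in PBS brains, between 6.05 and 8.81 (median 7.21) and between 7.48 and 8.74 (median 7.89) in BAL17 brains at days 21 and 28, and between 4.52 and 6.85 (median 6.56) in BAL17VII brains. The 10 BAL17 brains were all above the cultured cells, whichever the line.

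Rgs13 and Il7r, lower in cultured BAL17VII cells, were lower in every BAL17VII brain than in any BAL17 brain. Rgs13 was between 4.98 and 6.82 (median 5.45) in BAL17VII brains and between 8.06 and 10.46 (median 8.82) in BAL17 brains at day 21, with PBS brains between 4.16 and 5.32 (median 4.57). In BAL17 brains at day 28 it was between 8.36 and 8.84 (median 8.46). Il7r was between 6.13 and 6.81 (median 6.56) in BAL17VII brains, which overlapped PBS brains, between 5.80 and 6.35 (median 6.17). It was between 7.71 and 8.84 (median 8.34) in BAL17 brains at day 21 and between 6.97 and 7.58 (median 7.46) at day 28. The share of tumour cells in each brain is not known, and 1 BAL17VII brain stood apart with a Cd79b level of 6.32, within the 5.59 to 6.38 of PBS brains. The other 4 BAL17VII brains had 7.92 to 8.91 for Cd79b and the 10 BAL17 brains 8.66 to 9.29. Without the brain that stood apart, BAL17VII brains had 8.85 to 10.35 for H2-Ea, 5.26 to 6.82 for Rgs13, 6.33 to 6.81 for Il7r and 6.28 to 6.85 for Ms4a1. Dock10 was high in PBS brains, between 8.77 and 9.17 (median 8.90), and in BAL17VII brains, between 8.97 and 9.35 (median 9.12). BAL17 brains had between 8.20 and 8.50 (median 8.42) at day 21 and between 8.18 and 8.38 (median 8.28) at day 28, below every PBS brain and every BAL17VII brain.

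The arrays of a line resembled each other closely. Correlations over the tested genes were 0.9788 to 0.9893 within a line and at most 0.9526 between lines, across genes, which are not independent replicates. The first principal component held 63.2% of the variance and separated the lines. The second held 8.17% and lay mainly within BAL17VII, with replicate 2 at 14.79 and replicate 4 at -12.47. The median SD over genes was 0.134 in BAL17VII and 0.113 in BAL17, and 61.6% of genes had the larger SD in BAL17VII. Without BAL17VII replicate 2, 1689 genes were called higher and 1709 lower, and without replicate 4 these counts were 1937 and 1401.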

How the data were processed

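RNA of cultured lymphoma lines and of mouse brains was measured on Affymetrix mouse gene arrays. The submitters' processing notes name RMA and Affymetrix Expression Console, without versions, and the deposited table holds the resulting intensities on a linear scale. They run from 2.94 to 17825 on the line arrays, so log2 was taken first. Over all probe sets, the median intensities of the line arrays were 85.4 to 89.8 on the linear scale. The array medians used by the filter and in the text, 6.54 to 6.64 in log2, cover only probe sets with a gene symbol. Which arrays were normalized together is not given in the sources used here. Of 35556 probe sets 21789 carried 1 gene symbol, 1621 several and 12146 none in the probe table. Identifiers of 21698 were found in the gene table of GRCm38.p6, giving 19938 genes. Each gene was represented by its brightest 1-symbol probe set. limma 3.58.1 in R 4.3.3 was fitted to the 12 line arrays with a group-means model and empirical Bayes moderation, two-sided, and was tested on simulated data. Replicate numbers were not used as pairs, since same-numbered arrays had correlations of deviations from 0 to 0.175. Alternatives changed the normalization, filter, probe-set rule, variance model, arrays and minimum change. Genes named are the 15 largest rises and falls without overlap, up to 6 called genes and the contrary calls of each list, and a set of fixed genes. The comparison, the lists and these rules were chosen with earlier results of these data known. RMA gives no detection call, and where a group lies below its array medians residual background can shrink a difference. The number of arrays limits the precision.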

Additional observations from a re-analysis of the deposited data

Results flagged for a closer look

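In 26 cases 1 array lay far from the others of its group, with a gap to its nearest neighbour large against the group's range by Dixon's rule. Of these, 25 were among 576 sets of 6 values from the lines and 1 among 24 sets of 5 from brains, and chance marks about 1 in 20 sets.

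BAL17VII replicate 2 was the highest of its line for 9 genes. Its log2 intensities were 11.30 for H2-Ea, 8.004 for C2cd6, 9.04 for Erap1, 8.997 for Flt3 and 9.02 for Notch2, genes that rose, and 10.58 for Elovl1. It was also the highest for 3 genes that fell, 11.25 for Top2a, 10.18 for Nolc1 and 8.49 for Gusb. The same array was the lowest for Nlrc5 at 8.78 and for Tlr9 at 6.88.

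BAL17VII replicate 1 was the lowest for Arhgap15 at 9.92, Cd44 at 8.79 and Cysltr1 at 8.74. BAL17VII replicate 4 was the lowest for Hmgcs1 at 7.69 and Npc1 at 8.49. BAL17VII replicate 3 was the highest for Cd48 at 8.50 and replicate 6 for Ms4a1 at 5.65.

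In BAL17, replicate 6 was the lowest for Cd79a at 8.68, the centromere gene Cenpa at 9.73 and Xaf1 at 5.93. Replicate 2 was the highest for E2f8 at 9.48 and Tipin at 10.05, replicate 4 for Irgm1 at 7.24 and replicate 5 for Ifi27l2a at 6.95. Among BAL17VII brains, replicate 1 was the lowest for Ms4a1 at 4.52. This is the brain whose Cd79b level lay within the range of PBS brains.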

How the results depend on the processing

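Across 26 alternatives, 234 of the 260 called genes named here kept direction and call, apart from the test against a minimum change of 0.5. That test asks for more than a difference from 0 and called 316 genes in all, 216 higher and 100 lower, with 108 of the named genes among them. The filter at percentile 75, which tests fewer genes, called 1152 higher and 1182 lower, so falls outnumbered rises there, as after quantile normalization again (1776 and 1924) and median centring (1496 and 1571). Leaving out each array gave 3099 to 3398 calls, 1680 to 1937 of them higher and 1392 to 1709 lower. With the replicate number as a block 3479 genes were called, and same-numbered arrays were not taken as pairs. Some genes that were not called changed sign. With quantile normalization again the differences were -0.012 for Rfx5, -0.0028 for Rfxap and -0.022 for B2m. Without 1 array, differences ranged from -0.018 to 0.083 for Rfx5, from -0.010 to 0.061 for Rfxap, from -0.011 to 0.082 for Stat2 and from -0.13 to 0.00056 for Cd79a. With array weights Stat2 was at -0.018. In a fit over all 32 arrays the mitosis list had 2 rises and 4 falls. The cause of these changes was not tested. Apart from the minimum change, 26 of the called genes named here lost the call under at least 1 alternative. Il16, Nop14, Srebf1, Cdkn2a and Map1lc3b, with differences between -0.18 and 0.30, lost the call under several settings each. Tap2, Ripk3, Gna13, Elovl1, Creld2 and Eif2s3x lost it in the limma fit without the filter, with adjusted p from 0.0504 to 0.0666.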
